A study of Homo sapiens with 27 samples.

Results

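MCF10A cells that received epidermal growth factor (EGF) together with transforming growth factor beta (TGFB) were compared with MCF10A cells that received EGF alone. The libraries were chosen by the treatment in their labels: 3 of EGF+TGFB and 3 of EGF, which make 6 of the 27 libraries of the series. MCF10A is an established, non-tumorigenic line of human breast epithelium. All cells had been grown with serum and 20 ng/ml EGF, hydrocortisone, cholera toxin and insulin, plated on collagen I, and kept for 18 h without growth factors. Fresh medium without other growth factors then brought EGF at 10 ng/ml, or EGF and TGFB at 10 ng/ml each, and polyadenylated RNA was collected 24 h later. Side comparisons used cells given phosphate-buffered saline (PBS) or TGFB alone, cells given oncostatin M (OSM), a relative of interleukin-6, with or without TGFB, and cells given EGF+OSM with or without TGFB, each ligand at 10 ng/ml for 24 h. Each group had 3 libraries of the same line. The labels do not say that replicates came from separate cultures, so p-values measure the spread between these libraries, which may be technical. The series asks how cells respond when several ligands act together; here the question is what TGFB changes in cells that EGF is already stimulating.

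TGFB binds the receptor TGFBR2, which recruits and activates TGFBR1. The activated receptor phosphorylates SMAD2 and SMAD3, which enter the nucleus with SMAD4 and act on target genes. SMAD7 and other targets close a negative feedback loop. In mammary epithelium TGFB is known for growth arrest, for matrix production and for epithelial-mesenchymal transition (EMT), in which cells gain mesenchymal genes and lose epithelial ones. EGF acts through its receptor EGFR and the RAS-ERK pathway, and MCF10A cells need it to proliferate.

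Promoter sequences of 4 genes that stand for the response are shown first. They are the feedback inhibitor SMAD7, the 2 genes of strongest rise among those with at least 10 CPM and an entry in the sequence table (TGFB2, a TGFB ligand, and LMCD1, a LIM-domain transcriptional cofactor), and KRT4, the gene of strongest fall under the same limits. Each runs from 250 bases before to 50 bases from the gene start on, on the gene's own strand, from RefSeq on GRCh38.p14. Capitals mark CAGAC, the SMAD-binding element, searched on both strands.
SMAD7, chr18:48950916-48951215, minus strand: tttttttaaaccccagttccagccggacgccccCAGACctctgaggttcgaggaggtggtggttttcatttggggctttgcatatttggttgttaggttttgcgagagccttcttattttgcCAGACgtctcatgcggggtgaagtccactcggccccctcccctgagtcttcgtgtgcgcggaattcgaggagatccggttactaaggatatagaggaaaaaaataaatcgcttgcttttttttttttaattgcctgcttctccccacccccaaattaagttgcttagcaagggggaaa
TGFB2, chr1:218345086-218345385, plus strand: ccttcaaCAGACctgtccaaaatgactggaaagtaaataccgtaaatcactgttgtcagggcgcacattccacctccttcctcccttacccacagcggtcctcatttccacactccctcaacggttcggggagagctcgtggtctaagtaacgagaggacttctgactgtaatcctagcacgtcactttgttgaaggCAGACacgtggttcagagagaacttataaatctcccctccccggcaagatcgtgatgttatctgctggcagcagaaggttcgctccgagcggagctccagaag
LMCD1, chr3:8501573-8501872, plus strand: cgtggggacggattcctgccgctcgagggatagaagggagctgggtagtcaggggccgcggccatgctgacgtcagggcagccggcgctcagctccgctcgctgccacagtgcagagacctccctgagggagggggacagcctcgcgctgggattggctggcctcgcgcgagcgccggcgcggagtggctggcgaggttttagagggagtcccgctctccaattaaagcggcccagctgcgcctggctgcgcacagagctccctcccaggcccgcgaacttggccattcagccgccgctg
KRT4, chr12:52814067-52814366, minus strand: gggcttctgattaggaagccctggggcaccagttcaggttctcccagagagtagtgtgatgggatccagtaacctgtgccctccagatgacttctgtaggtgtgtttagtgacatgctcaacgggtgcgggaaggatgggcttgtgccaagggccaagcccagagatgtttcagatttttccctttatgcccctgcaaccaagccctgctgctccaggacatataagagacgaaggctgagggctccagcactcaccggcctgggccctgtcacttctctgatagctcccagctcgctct
CAGAC occurred 2 times in the window of SMAD7, 217 and 128 bases before the start, and 2 times in that of TGFB2, 243 and 53 bases before the start. It did not occur in the windows of LMCD1 and KRT4. So short a motif is common: 45.0% of the 27305 promoters in the table held it. Among genes with an entry it was in 43.1% of the 11408 tested, 47.3% of the 594 that rose at least 2-fold with TGFB and 47.3% of the 457 that fell at least 2-fold. The AP-1 site TGACTCA was in 3.47% of the tested genes' promoters, 5.89% of those that rose and 4.81% of those that fell. CAGGTG, an E-box bound by ZEB and SNAI factors, was in 19.0%, 20.9% and 25.8%. None of the 4 windows shown held TGACTCA or CAGGTG. These are matches of letters, not measured binding.

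The libraries held 40457659, 46857559 and 38090001 counts with EGF and 38639116, 52947078 and 30143162 with EGF+TGFB. Levels are given as CPM, a gene's counts per 1000000 counts of the library, after scaling by the trimmed mean of M-values, and fold changes as log2 with their standard error (SE). The share of the 10 rows with most counts was 6.14% ± 0.133 with EGF and 9.46% ± 0.437 with EGF+TGFB (SD, n = 3). Mitochondrial transcripts took 1.76% ± 0.290 and 1.62% ± 0.136. All 12 epithelial markers were detected, with summed levels of 13637 to 14603 CPM in the EGF libraries and 19479 to 22326 CPM in the EGF+TGFB libraries. Of 9 fibroblast markers 5 passed the filter on low counts, with summed levels of 34.0 to 43.5 and 111 to 143 CPM, and DPT was at 0 in all 6 libraries. Of 10 immune markers 3 passed, with 44.3 to 49.3 and 77.0 to 80.6 CPM, and CD3E, MS4A1 and NKG7 were among those at 0. Endothelial markers summed to 2.14 to 2.44 and 1.37 to 1.95 CPM, and adipocyte markers to 0.312 to 0.719 and 0.220 to 0.411 CPM. The part of these markers in the results was not tested. In bulk RNA, a change in how many cells express a gene and a change in RNA per cell cannot be told apart.

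The third EGF+TGFB library, the shallowest of all 27, stood nearer to EGF than its 2 companions. Among the 4285 rows called higher it was the EGF+TGFB library nearest to the EGF mean in 69.0%, and among the 4378 called lower in 71.2%. It held that place for 23 of the 24 genes of strongest change. Its values are therefore given one by one, and the medians of the lists it moves most are repeated without it.

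TGFB added to EGF changed 8663 of 16611 rows tested (52.2%), 4285 up (25.8%) and 4378 down (26.4%), by edgeR's quasi-likelihood test at an adjusted p under 0.05. A row is a gene identifier of the deposited table, and "called" means past that threshold. The median log2 fold change over all rows was -0.018. At least 2-fold changes were called in 1521 rows (9.16%), 854 higher (5.14%) and 667 lower (4.02%). Of 21 SMAD target genes 19 rose, and the tested genes listed for replication, mitosis and ribosome production were all called lower. The lists were drawn up with earlier results of these data known, so their counts describe them and are no independent test. A list with shares near 25.8% up and 26.4% down is close to the rows as a whole, and its counts are no result about it. Of the calls 49.5% were higher; the share was 42.5%, 41.7% and 43.9% without EGF+TGFB replicate 1, 2 and 3, with 7901, 7758 and 8519 rows called.

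The 12 genes of strongest rise and the 12 of strongest fall with at least 10 CPM in the higher group are described next; they were picked by their fold change among called genes whose groups do not overlap, so the values describe them and their separation is no finding. Over all rows tested, 59.8% had ranges that do not overlap. TGM2, a transglutaminase that crosslinks matrix proteins (ENSG00000198959, chr20:38127385-38166578), had 21.4, 17.9 and 14.7 CPM in the EGF libraries and 887, 803 and 694 CPM in the EGF+TGFB libraries. The log2 fold change was 5.46 ± 0.21 (SE; adjusted p = 3.9e-14), the largest of the 24. PDGFB, a chain of the platelet-derived growth factor (chr22:39223359-39244982), had 1.03, 0.839 and 0.415 CPM with EGF and 28.9, 30.3 and 18.1 CPM with EGF+TGFB. Its log2 fold change was 5.07 ± 0.31 (SE). The integrin subunit gene ITGB3 (chr17:47253827-47313743), which pairs with ITGAV in a receptor for fibronectin and vitronectin, went from 2.14, 2.92 and 1.08 CPM to 63.1, 65.7 and 40.1 CPM, a log2 change of 4.76 ± 0.28. In PDGFB and ITGB3 the third EGF+TGFB library was the lowest of its group, and the third EGF library the lowest of the EGF group.

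TGFB2, a ligand of the same pathway (chr1:218345336-218444619), had 1.81, 1.70 and 1.47 CPM with EGF and 27.4, 27.1 and 16.8 CPM with EGF+TGFB (log2 fold change 3.84 ± 0.26). LMCD1 (chr3:8501807-8574668) rose from 2.43, 2.18 and 1.93 CPM to 25.5, 24.8 and 21.7 CPM (3.46 ± 0.13). FN1 encodes fibronectin, a fibre of the matrix that cells bind through integrins (chr2:215360440-215436073). It had 722, 707 and 514 CPM with EGF and 6610, 6085 and 5288 CPM with EGF+TGFB, a log2 fold change of 3.21 ± 0.19 (edgeR adjusted p = 1.6e-11). The other rises of this group were those of KANK4, an adhesion scaffold (3.21), NEDD9, a scaffold of focal adhesions (3.13), LBH, a transcription cofactor (3.12), POSTN, a matricellular protein (3.04), FBLN5, a protein of elastic fibres (3.02), and CGB8 (3.19). CGB8 belongs to the chorionic gonadotropin beta genes, whose copies are nearly identical, so its value is uncertain.

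Of the falls in this set, KRT4 was the strongest (chr12:52806549-52814116): 22.7, 36.6 and 45.1 CPM with EGF and 1.16, 3.14 and 10.4 CPM with EGF+TGFB, a log2 fold change of -2.91 ± 0.46. KRT13, its partner keratin in non-cornified stratified epithelium (chr17:41500981-41505705), went from 24.6, 27.6 and 29.0 CPM to 2.81, 4.01 and 9.19 CPM (-2.39 ± 0.27). KRT10, a keratin of suprabasal cells (chr17:40818117-40822614), went from 161, 254 and 222 CPM to 32.4, 45.9 and 68.7 CPM (-2.12 ± 0.27). In these 3 keratins the third EGF+TGFB library lay closest to the EGF libraries. FGFBP1, a carrier that releases fibroblast growth factors from the matrix (chr4:15935577-15938740), had 54.7, 70.9 and 78.8 CPM with EGF and 4.29, 6.71 and 17.9 CPM with EGF+TGFB (-2.87 ± 0.35). The cholesterol sulfotransferase SULT2B1 fell by 2.04 on the log2 scale, the cortisol-inactivating enzyme HSD11B2 by 2.03, the transporters ABCC2 and SLCO4A1 by 2.02 each, and the proton pump subunit ATP6V1B1 by 1.93. The interleukin-1 receptor antagonist IL1RN and the EGF-family ligand EREG fell by 1.99 each. SERPINB3, a squamous serpin, fell by 2.02; its near copy SERPINB4 had -0.24 and was not called, and counting could split reads between the pair.

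**Figure D1:**
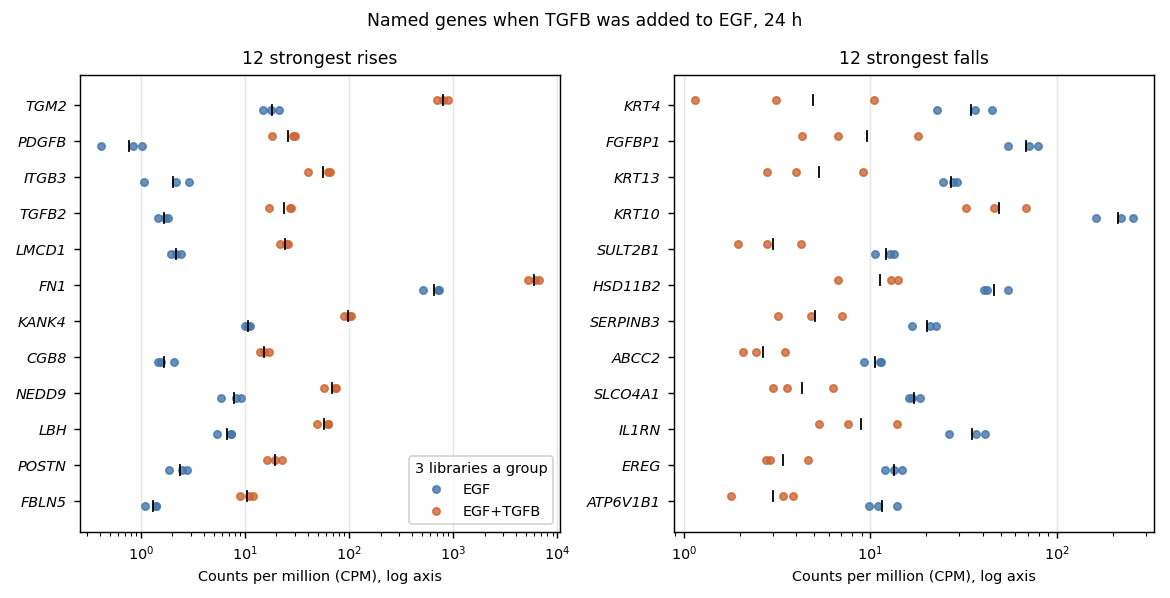
Level in CPM (log axis) of the 12 genes of strongest rise and the 12 of strongest fall, one point for each of the 3 EGF and 3 EGF+TGFB libraries, with a tick at each group mean. The genes were picked for groups that do not overlap; TGM2 runs from 14.7 to 21.4 CPM with EGF and from 694 to 887 CPM with EGF+TGFB, and KRT4 from 22.7 to 45.1 and from 1.16 to 10.4 CPM.

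Among the ligands of the pathway and the proteins that hold them, 8 of 13 tested genes rose (background 25.8%) and 1 fell (26.4%). The median log2 fold change was 0.31. INHBA, the activin A chain, had 15.7, 14.2 and 11.6 CPM with EGF and 54.4, 52.0 and 41.5 CPM with EGF+TGFB (1.83 ± 0.17). The latent TGFB binder LTBP2 rose by 1.36, and the follistatin-like genes FSTL3 and FSTL1, of which FSTL3 is an activin antagonist, by 1.41 and 1.23. TGFB1, the ligand gene of the added protein's family, had 59.4, 54.8 and 58.1 CPM with EGF and 65.2, 69.0 and 69.3 CPM with EGF+TGFB. The difference was called (0.24 ± 0.09, edgeR adjusted p = 0.026) but lost its call without any of 5 of the 6 libraries, with adjusted p from 0.051 to 0.18. TGFB3 was low, at 1.51 ± 0.0569 and 0.893 ± 0.143 CPM (SD, n = 3), and called lower (-0.77).

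Of the receptors and SMADs 3 of 11 rose (background 25.8%) and 1 fell (26.4%). The median was 0.09, and 0.04 and 0.05 without the first or second EGF+TGFB library. TGFBR1, the type I receptor, had 54.3, 56.4 and 53.6 CPM with EGF and 166, 166 and 139 CPM with EGF+TGFB (1.52 ± 0.06, edgeR adjusted p = 1.4e-14). ACVR1, a type I receptor for BMP and activin, rose by 0.70. TGFBR3, the co-receptor betaglycan, had 11.8, 12.3 and 13.4 CPM with EGF and 6.88, 6.97 and 6.75 CPM with EGF+TGFB (-0.86). TGFBR2 had 297, 293 and 284 CPM and 339, 318 and 315 CPM; its edgeR adjusted p was 0.053, and 0.023 with the replicate number as a block. SMAD3 had 49.2 ± 2.04 and 49.7 ± 2.46 CPM (SD, n = 3), with overlapping groups. SMAD2 was called at 0.13 ± 0.05, a difference that lost its call in 7 of the 12 alternative fits.

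Feedback genes of the SMAD pathway rose in 8 of 10 (background 25.8%) and fell in none (26.4%), with a median of 1.01. SMAD7, which blocks the receptor, had 13.2, 13.8 and 14.2 CPM with EGF and 38.5, 36.9 and 34.9 CPM with EGF+TGFB (1.42 ± 0.08). SKIL, a repressor of SMAD complexes, rose by 1.40, and PMEPA1, which sequesters SMAD2 and SMAD3, by 1.95, from 204, 199 and 177 CPM to 783, 791 and 670 CPM. The ubiquitin ligase genes SMURF1 and SMURF2 rose by 1.04 and 1.02, and the decoy receptor BAMBI by 1.0. Groups did not overlap in any of these 6, as in 59.8% of all rows tested. The 6 were fixed leading genes or called members of largest change, so this separation is no finding. SMAD6 and NEDD4L were the 2 tested members not called, at -0.01 and 0.08.

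SMAD target genes rose in 19 of 21, 17 of them at least 2-fold (background 5.14%), and fell in none. The median was 1.88. The list was drawn up with earlier results of these data known, and it holds TGM2, PDGFB and LBH, picked above by their rise. Its counts therefore describe the list and are no independent support. TGFBI, a secreted matrix protein, had 2274, 2360 and 2430 CPM with EGF and 12777, 13538 and 11601 CPM with EGF+TGFB (2.42 ± 0.10). CCN2, a matricellular growth factor also driven by YAP, had 35.7, 31.2 and 29.2 CPM and 153, 156 and 128 CPM (2.19 ± 0.11). The 2 members not called were MMP13, at 0.301 ± 0.0872 and 0.433 ± 0.246 CPM (SD, n = 3), and NOX4. CDKN2B is on the feedback and cyclin lists, not on this one. This cell cycle inhibitor, which TGFB induces in many epithelia, had 0 counts in all 27 libraries. For it, 3 counts over the group, the limit that a count of 0 allows, equal 0.0221 CPM with EGF and 0.0261 CPM with EGF+TGFB. CDKN2A of the cyclin list also had 0 counts in the 6 EGF and EGF+TGFB libraries. Whether these cells can express either gene was not tested.

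In the ID and BMP list, which holds targets and parts of the parallel BMP branch, 4 of 14 rose and 4 fell, shares near those of all rows (25.8% and 26.4%). The median was -0.05, or -0.01 with the member at the detection floor set to its bound, 0.03 without the second EGF+TGFB library and -0.11 without the third. ID2, an inhibitor of basic helix-loop-helix factors, had 6.69, 9.67 and 8.11 CPM with EGF and 2.61, 3.42 and 3.67 CPM with EGF+TGFB (-1.34 ± 0.19). ID1 had 104 ± 12.2 and 87.2 ± 8.71 CPM (SD, n = 3; edgeR adjusted p = 0.12), and ID3 had 61.7 ± 4.82 and 68.7 ± 4.91 CPM (0.17); both sets of groups overlapped. Without the third EGF+TGFB library ID1 was called lower (-0.39, edgeR adjusted p = 0.038). The ligand gene BMP2 rose by 1.31, from 5.48 ± 0.251 to 13.6 ± 1.97 CPM. NOG, a BMP antagonist, was called higher at very low levels, 0.202 and 0.972 CPM.

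**Figure D2:**
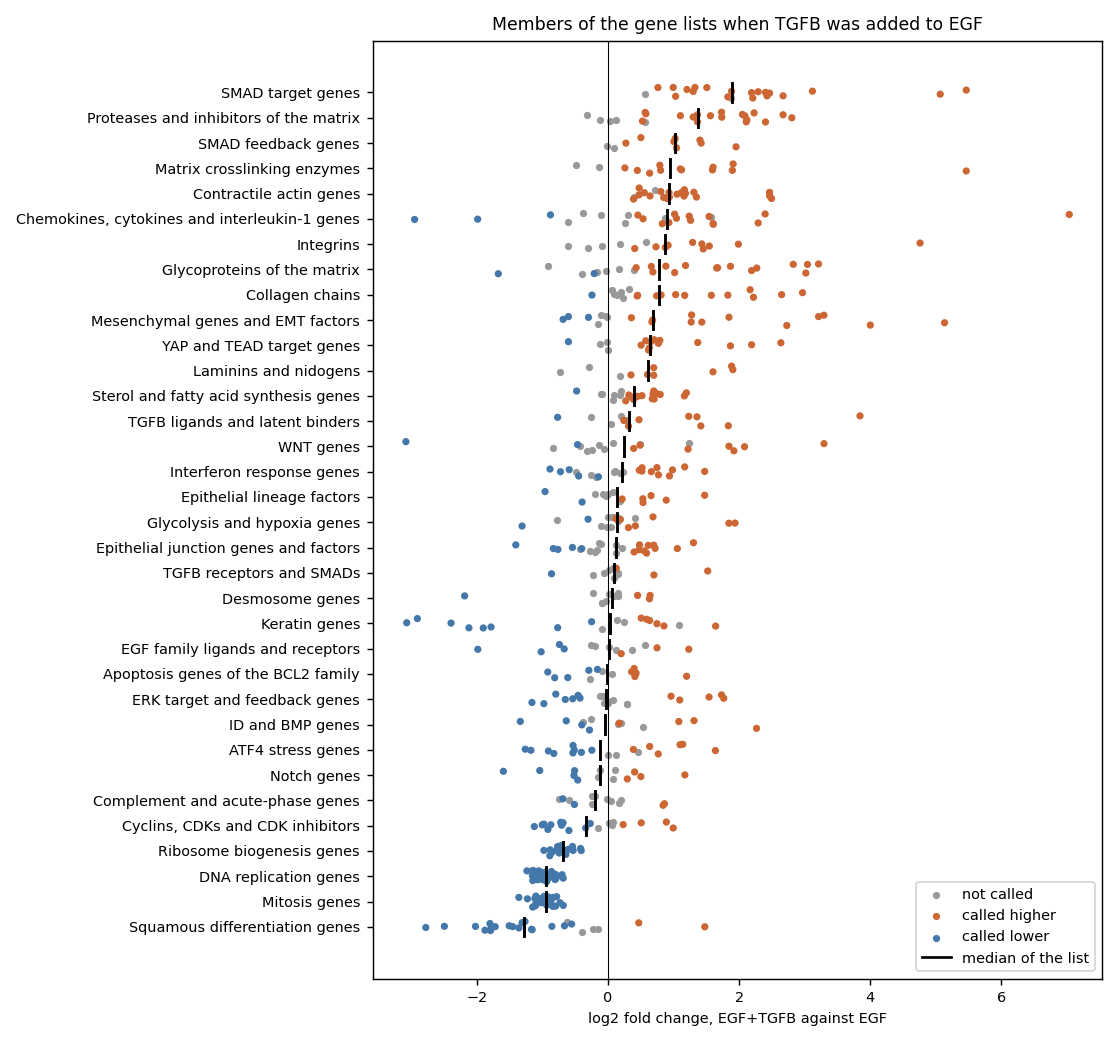
Log2 fold change, EGF+TGFB against EGF, of the tested members of 34 gene lists, one point per gene, coloured by whether it was called higher, lower or neither, with a bar at the list's median. The 6 members with 3 or fewer counts in a group are left out of the points; SMAD targets lie to the right with a median of 1.88, and the replication, mitosis, ribosome and squamous lists to the left, with medians of -0.94, -0.95, -0.69 and -1.29.

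Genes of the matrix rose broadly. Of 24 matrix glycoproteins 15 rose (background 25.8%) and 2 fell (26.4%), with a median of 0.78. TNC, the matricellular protein tenascin C, had 169, 174 and 109 CPM with EGF and 1164, 1208 and 827 CPM with EGF+TGFB (2.82 ± 0.16). THBS1, thrombospondin 1, an activator of latent TGFB, had 1009, 1017 and 1054 CPM with EGF and 2292, 2348 and 2345 CPM with EGF+TGFB (1.18 ± 0.22). FBN1, the microfibril protein fibrillin 1, went from 6.06, 7.87 and 7.23 CPM to 32.7, 34.0 and 35.4 CPM (2.27 ± 0.10). The 2 that fell were CCN3 (-1.67) and EFEMP1 (-0.21), which are named after their values were seen.

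Of 20 collagen chains 12 rose (background 25.8%) and 1 fell (26.4%), COL4A6 at -0.25. The basement membrane chains COL4A1 and COL4A2, whose genes lie head to head on chromosome 13, rose by 2.65 and 2.17: COL4A1 had 109, 108 and 103 CPM with EGF and 708, 684 and 617 CPM with EGF+TGFB. COL1A1, a chain of fibrillar collagen, had 20.7, 22.4 and 20.7 CPM and 74.8, 84.7 and 66.6 CPM (1.83 ± 0.10). COL7A1 of the anchoring fibrils rose by 1.03, and COL17A1 of the hemidesmosome by 0.44. Other fibrillar chains were barely detected: COL1A2 had 4 counts over the EGF libraries and 28 over the EGF+TGFB libraries, and COL5A1 had 1 and 2. The median of the list was 0.77, or 0.60 with the member at the detection floor set to its bound.

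The laminin chains of the epithelial basement membrane rose together. LAMA3 and LAMB3 rose by 1.90 and 1.60. LAMB2 and LAMC1 rose by 0.70 each. In all, 7 of 11 laminin and nidogen genes rose (background 25.8%) and none fell (26.4%), with a median of 0.60. Of 14 enzymes that modify or crosslink matrix proteins 12 rose (background 25.8%) and none fell (26.4%), with a median of 0.95. LOX, lysyl oxidase, went from 15.7, 17.1 and 15.3 CPM to 56.6, 49.7 and 39.3 CPM (1.60 ± 0.18), the lysyl hydroxylase PLOD2 rose by 1.90, and the prolyl hydroxylase subunits P4HA2 and P4HA3 by 1.59 and 1.91.

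Proteases of the matrix and their inhibitors rose in 18 of 23 (background 25.8%) and fell in none (26.4%). Their median was 1.36, and 1.49 without the third EGF+TGFB library. MMP2, a gelatinase, had 4.77, 6.01 and 5.33 CPM with EGF and 29.8, 28.8 and 26.6 CPM with EGF+TGFB (2.40 ± 0.13). MMP9, the other gelatinase, went from 26.7, 27 and 18.8 CPM to 100, 118 and 94.0 CPM (2.11 ± 0.22), and PLAU, the urokinase, from 240, 216 and 170 CPM to 950, 987 and 782 CPM (2.12 ± 0.13). ADAM19, a membrane metalloprotease, rose by 2.80, and the secreted ADAMTS15 by 2.09. MMP10, a stromelysin, had 11, 8.65 and 7.50 CPM with EGF and 32.0, 20.9 and 17.0 CPM with EGF+TGFB (1.36 ± 0.33). The interstitial collagenase MMP1 did not follow: 3.81, 2.64 and 3.35 CPM with EGF and 3.44, 2.07 and 2.33 CPM with EGF+TGFB, with overlapping groups (-0.32 ± 0.32, edgeR adjusted p = 0.43). MMP3 was called higher at 12 and 49 counts over the groups.

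Receptors and the contractile apparatus rose with the matrix. Of 15 integrin subunits 10 rose (background 25.8%) and none fell (26.4%), with a median of 0.87. Beside ITGB3 these included ITGB6, whose pair with ITGAV activates latent TGFB (256, 223 and 184 CPM with EGF, 992, 932 and 707 CPM with EGF+TGFB, 1.99 ± 0.14). The fibronectin receptor subunit ITGA5 rose by 1.43, the collagen receptor subunits ITGA2 and ITGA1 by 1.45 and 1.29, and ITGAV by 1.54. Contractile actin genes rose in 20 of 22 (background 25.8%) and fell in none (26.4%), with a median of 0.93. TPM1, a tropomyosin, had 78.0, 83.7 and 66.5 CPM with EGF and 458, 481 and 346 CPM with EGF+TGFB (2.49 ± 0.10). TAGLN, an actin-bundling protein, went from 197, 215 and 158 CPM to 1129, 1209 and 803 CPM (2.46 ± 0.19), and the myosin light chain MYL9 rose by 2.46. CALD1, CNN3 and ZYX rose by 1.35, 1.31 and 1.18. ACTA2, smooth muscle actin, had 7.80, 6.67 and 6.11 CPM and 9.77, 9.63 and 7.68 CPM, which overlapped; its edgeR adjusted p was 0.063, and 0.0020 with the replicate number as a block.

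Targets of the mechanosensitive coactivator YAP with its TEAD factors rose in 12 of 16 (background 25.8%) and fell in 1 (26.4%). The 1 that fell was AXL (-0.60), which is named after its value was seen. CCN1, a matricellular protein, had 52.8, 54.9 and 54.1 CPM with EGF and 196, 209 and 184 CPM with EGF+TGFB (1.87 ± 0.11). F3, tissue factor, rose by 1.37, and the kinase NUAK2 and the GTPase regulator DLC1 by 0.77 and 0.79. ANKRD1, a transcriptional cofactor, was low: 0.162 ± 0.0447 and 1.02 ± 0.0676 CPM (SD, n = 3).

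Mesenchymal genes and EMT factors rose in 12 of 19 (background 25.8%) and fell in 3 (26.4%), with a median of 0.68. CDH2, N-cadherin, had 15.5, 15.2 and 14.0 CPM with EGF and 105, 102 and 88.5 CPM with EGF+TGFB (2.73 ± 0.09, edgeR adjusted p = 4.1e-16). The repressor gene SNAI1 had 0.290, 0.419 and 0.367 CPM with EGF and 6.44, 5.84 and 5.11 CPM with EGF+TGFB (4.0 ± 0.18). ZEB1, another repressor of epithelial genes, went from 6.06, 4.25 and 4.50 CPM to 13.1, 11.8 and 10.9 CPM (1.27 ± 0.15), and SNAI2 from 103, 99.1 and 108 CPM to 135, 125 and 136 CPM (0.36 ± 0.06). VIM, vimentin, had 1027, 985 and 1027 CPM with EGF and 1648, 1642 and 1541 CPM with EGF+TGFB (0.67 ± 0.07). CDH11 had 5 counts over the EGF libraries and 159 over the EGF+TGFB libraries, and the ligand gene WNT5B rose from 0.347 to 3.45 CPM. The 3 that fell were TWIST1 (-0.69), AXL and TWIST2 (-0.30); the first and last are EMT factors, and all are named after their values were seen.

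Of 24 epithelial junction genes 10 rose (background 25.8%) and 5 fell (26.4%). The median was 0.12, and 0.06 and 0.02 without the first or second EGF+TGFB library. CDH1, E-cadherin, had 356, 396 and 322 CPM with EGF and 607, 669 and 491 CPM with EGF+TGFB (0.72 ± 0.13, edgeR adjusted p = 5.8e-05), so E-cadherin and N-cadherin transcripts rose together. The tight junction genes CLDN1 and CLDN4 rose by 1.30 and 1.06. EHF, an epithelial ETS factor, fell by 1.41, from 39.6, 54.7 and 40.2 CPM to 14.2, 19.4 and 17.0 CPM. EPCAM had 12.2 ± 0.596 and 10.9 ± 0.880 CPM (SD, n = 3; adjusted p = 0.30), and the splicing regulator ESRP1 had 86.0 ± 4.89 and 93.9 ± 6.71 CPM (0.099); neither was called. Among desmosome genes 3 of 12 rose (background 25.8%) and 1 fell (26.4%). Of those that rose, JUP (plakoglobin) had 0.64 and DSC2 0.63. DSG1, the desmoglein of differentiated layers, fell from 3.12, 4.15 and 4.18 CPM to 0.468, 0.648 and 1.47 CPM (-2.19 ± 0.33).

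**Figure D3:**
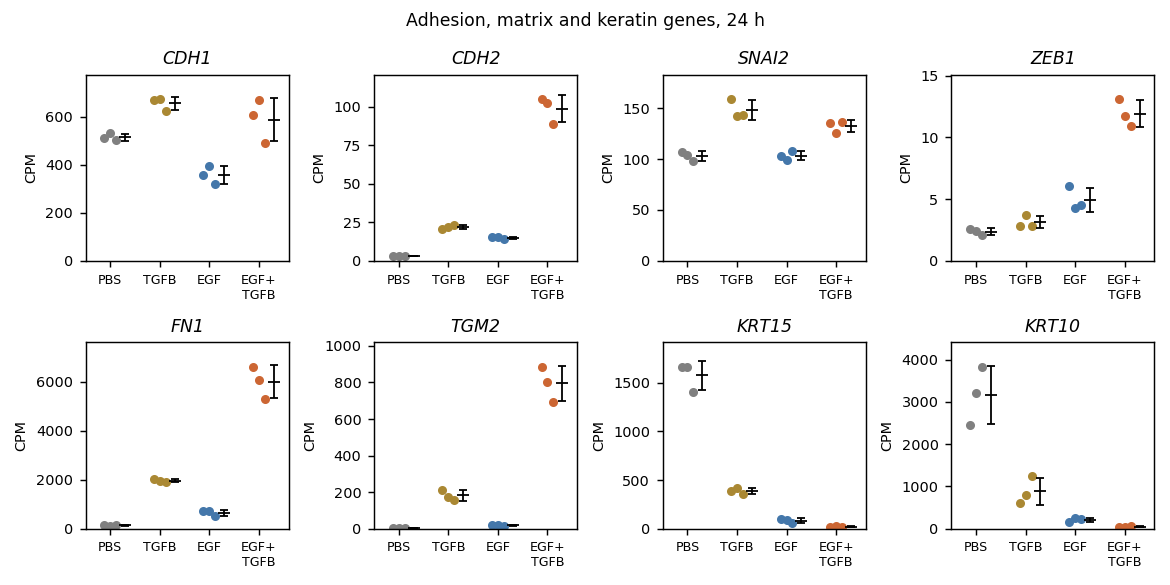
Level in CPM of 8 adhesion, matrix and keratin genes in PBS, TGFB, EGF and EGF+TGFB libraries (3 points a group; line and bar, mean ± SD; axes start at 0). CDH1 and CDH2 are both higher with EGF+TGFB than with EGF, FN1 and TGM2 are highest with EGF+TGFB, and KRT15 and KRT10 are lowest there.

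Of 18 keratins 6 rose (background 25.8%) and 8 fell (26.4%). The basal keratin KRT14 had 710, 753 and 748 CPM with EGF and 1072, 1219 and 1142 CPM with EGF+TGFB (0.63 ± 0.10), while its partner KRT5 had 3880, 4183 and 4130 CPM and 3315, 3468 and 3463 CPM (-0.25 ± 0.06). The progenitor-associated keratin KRT15 fell from 100, 93.1 and 55.2 CPM to 21.3, 23 and 22 CPM (-1.90 ± 0.36). KRT1, the partner of KRT10, fell by 3.07 at low levels, 1.74, 3.74 and 3.59 CPM against 0.0550, 0.142 and 1.06 CPM; without the third EGF+TGFB library the fall was 4.86. Squamous differentiation genes fell in 18 of 24, 15 of them at least 2-fold (background 4.02%), and rose in 2; the median was -1.29, and -1.54 without that library. They included the lipoxygenase ALOX12B (-2.78) and the cornified envelope gene CRNN (-2.50), at 347 and 41 counts and at 255 and 36 counts over the groups. IVL, involucrin, went the other way, from 51.4, 74.1 and 66.4 CPM to 83.6, 100 and 81.0 CPM (0.47 ± 0.14); the call was lost without the first EGF library (adjusted p = 0.063) or the second EGF+TGFB library (0.12). The other member that rose was LCE3D (1.47), named after its value was seen. Of 14 epithelial lineage factors 6 rose (background 25.8%) and 2 fell (26.4%). SOX4 rose by 1.47 and FOXA1 by 0.89, ESR1 had 91 and 37 counts over the groups, and TP63, the basal master factor, had 86.7 ± 1.28 and 86.4 ± 2.48 CPM (SD, n = 3).

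All 29 DNA replication genes, all 29 mitosis genes and all 18 ribosome biogenesis genes were called lower (background 26.4%), with medians of -0.94, -0.95 and -0.69. MCM2, a subunit of the replicative helicase, had 131, 136 and 157 CPM with EGF and 57.6, 56.5 and 78.1 CPM with EGF+TGFB (-1.15 ± 0.14). PCNA, the polymerase clamp, had 139, 144 and 158 CPM and 68.4, 65.9 and 88.6 CPM (-0.99 ± 0.11), and the ribonucleotide reductase subunit RRM2 fell by 1.0. MKI67, the proliferation marker, had 479, 521 and 557 CPM with EGF and 240, 219 and 358 CPM with EGF+TGFB (-0.93 ± 0.21). CCNB1, the mitotic cyclin, went from 205, 222 and 246 CPM to 97.2, 90.7 and 134 CPM (-1.07 ± 0.20), and its kinase CDK1 fell by 0.92. In each of these the third EGF+TGFB library was the highest of its group and still below every EGF library. Without it the medians were -1.17 for replication, -1.23 for mitosis and -0.83 for ribosome biogenesis.

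With EGF+TGFB, MKI67 and MCM2 stayed above their level with PBS. MKI67 was at 21.5 ± 7.11 CPM with PBS and 272 ± 74.8 CPM with EGF+TGFB, and MCM2 at 17.5 ± 0.944 and 64.0 ± 12.1 CPM (SD, n = 3). The EGF libraries serve in both comparisons, so the change with EGF is given only beside the other: the median log2 fold change of EGF against PBS was 3.32 for replication, 4.15 for mitosis and 1.07 for ribosome biogenesis. Among the ribosome genes, NCL (nucleolin) had 1095, 1172 and 1265 CPM with EGF and 610, 582 and 723 CPM with EGF+TGFB (-0.88 ± 0.08), NOP56 fell by 0.78 and POLR1B, a subunit of RNA polymerase I, by 0.98.

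Of 19 cyclins, CDKs, inhibitors and partners 11 fell (background 26.4%) and 4 rose (25.8%). MYC, the growth-promoting factor, had 331, 351 and 354 CPM with EGF and 164, 161 and 201 CPM with EGF+TGFB (-0.98 ± 0.09). CDK4, the G1 kinase, had 113, 116 and 126 CPM and 49.5, 48.7 and 65.0 CPM (-1.13 ± 0.08), and the phosphatase CDC25A fell by 0.92. CDKN1A, the CDK inhibitor p21, rose: 236, 256 and 200 CPM with EGF and 464, 518 and 395 CPM with EGF+TGFB (0.99 ± 0.12). With PBS it was at 477 ± 35.0 CPM (SD, n = 3). CCND1, cyclin D1, had 217, 225 and 241 CPM and 233, 228 and 257 CPM, which overlapped (0.07 ± 0.13, edgeR adjusted p = 0.68). CDKN1C was called lower at -1.0 but lost its call in 7 alternative fits.

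**Figure D4:**
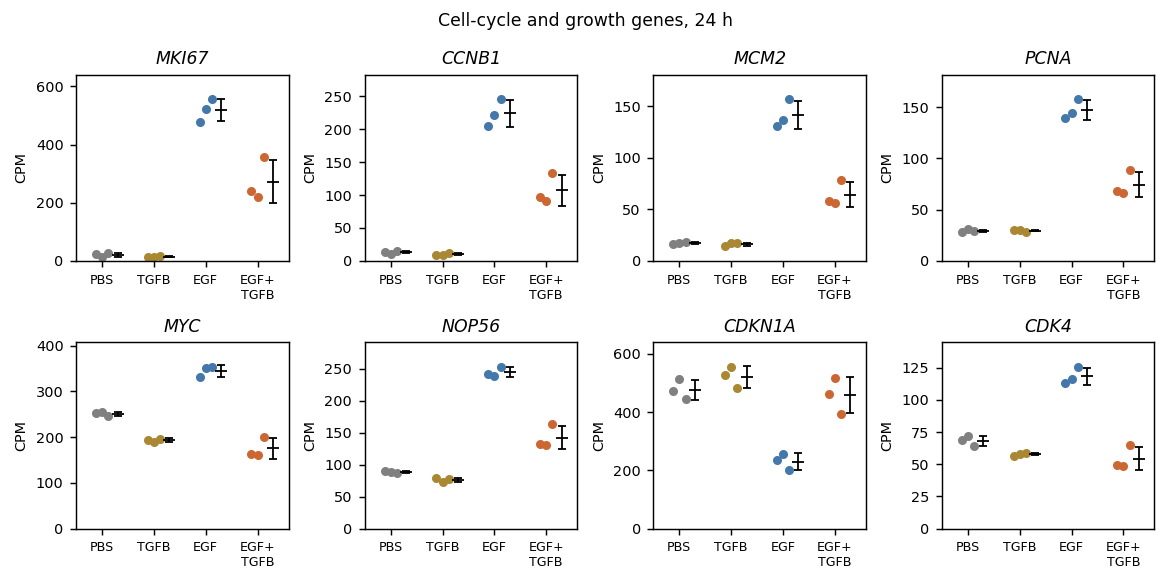
Level in CPM of 8 proliferation genes in PBS, TGFB, EGF and EGF+TGFB libraries (3 points a group; line and bar, mean ± SD; axes start at 0). MKI67, CCNB1, MCM2, PCNA, MYC, NOP56 and CDK4 are highest with EGF and lower with EGF+TGFB, and CDKN1A is lowest with EGF, at 231 CPM on average.

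Of 20 ERK targets and feedback genes 5 rose (background 25.8%) and 7 fell (26.4%), with a median of -0.03, and of -0.10, -0.07 and -0.09 without EGF+TGFB replicate 1, 2 and 3. DUSP6, the ERK phosphatase, had 102, 89.2 and 96.6 CPM with EGF and 62.6, 58.5 and 62.2 CPM with EGF+TGFB (-0.65 ± 0.16), and the AP-1 subunit FOSL1 had 91.1, 85.8 and 91.4 CPM and 60.6, 56.5 and 67.9 CPM (-0.54 ± 0.12). SPRY4, another ERK inhibitor, had 72.6 ± 4.08 and 88.4 ± 3.71 CPM (SD, n = 3). Its edgeR adjusted p was 0.16, and 0.0020 with only the 6 libraries fitted. IER3, LIF and SPRED3 rose by 1.73, 1.54 and 1.76. The ligands of EGFR moved apart: AREG fell from 302, 251 and 288 CPM to 129, 110 and 176 CPM (-1.02 ± 0.22) and EREG from 13.4, 12 and 14.9 CPM to 2.89, 2.76 and 4.63 CPM. HBEGF rose from 30.1, 28.2 and 29.1 CPM to 64.5, 77.4 and 63.1 CPM (1.23 ± 0.10), and TGFA rose by 0.75. The receptor EGFR itself had 522 ± 34.1 and 567 ± 8.51 CPM (SD, n = 3; edgeR adjusted p = 0.075), and LRIG1, which promotes its degradation, fell by 0.74.

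Of 26 chemokine, cytokine and interleukin-1 genes 14 rose (background 25.8%) and 3 fell (26.4%). IL6 had 6 counts over the EGF libraries and 723 over the EGF+TGFB libraries; its CPM was 0.0669, 0.0400 and 0.0244 against 7.48, 6.38 and 4.66. IL11, a fibrosis-associated cytokine, rose from 2.54, 2.02 and 1.76 CPM to 10.4, 10.9 and 9.63 CPM (2.29 ± 0.20). The neutrophil chemokine CXCL8 had 21.0, 18.4 and 14.4 CPM with EGF and 60.6, 57.7 and 45.3 CPM with EGF+TGFB (1.60 ± 0.20), CXCL1 rose by 1.26 and IL1A by 0.93. The 3 that fell were IL33 (94 and 10 counts over the groups), IL1RN and IL1B (-0.88), the last named after its value was seen. Interferon response genes rose in 10 of 22 (background 25.8%) and fell in 5 (26.4%). IRF9, a transcription factor of the interferon response, rose by 1.47, IFI27 by 1.17 and ISG15 by 0.98, while IFIT1 fell by 0.73. Of 13 complement and acute-phase genes 2 rose (background 25.8%) and 2 fell (26.4%). Among them were CD59 at 0.86 and CD55 at -0.69, both membrane inhibitors of complement. C3 had 258 ± 35.1 and 217 ± 26.7 CPM (SD, n = 3; edgeR adjusted p = 0.23, and 0.033 with the replicate block), and LCN2 had 16.3 ± 3.41 and 9.65 ± 1.97 CPM (0.13, and 0.0014 with the block).

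Among the BCL2 family 6 of 14 rose (background 25.8%) and 5 fell (26.4%). The death gene BCL2L11 (BIM) fell by 0.61 and the survival gene BCL2 by 0.92. BCL2A1 was called higher at 1.20 (edgeR adjusted p = 0.026) but lost its call in some alternative fits. Sterol and fatty acid synthesis genes rose in 14 of 21 (background 25.8%) and fell in 1 (26.4%), ELOVL6 at -0.48. Their median was 0.39. The isomerase IDI1 rose by 1.16, the desaturase FADS2 by 1.19 and HMGCS1 by 0.70. Of 20 glycolysis and hypoxia genes 7 rose (background 25.8%) and 2 fell (26.4%). VEGFA, the angiogenic factor, had 57.3, 45.3 and 37.3 CPM with EGF and 192, 156 and 155 CPM with EGF+TGFB (1.84 ± 0.13), and the hexokinase HK2 fell by 1.31. SLC2A1, a glucose transporter, had 89.0 ± 4.61 and 92.4 ± 6.68 CPM, and LDHA 876 ± 37.5 and 906 ± 48.6 CPM (SD, n = 3); neither was called. Of 18 ATF4-linked stress genes 6 rose (background 25.8%) and 9 fell (26.4%), with ATF3 at 1.64 and the serine synthesis gene PSAT1 at -1.18.

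In the Notch list 4 of 13 rose (background 25.8%) and 5 fell (26.4%). The ligand gene JAG1 had 103, 93.5 and 89.0 CPM with EGF and 243, 213 and 188 CPM with EGF+TGFB (1.17 ± 0.08). The receptor genes NOTCH3 and NOTCH1 fell by 1.04 and 0.52, and the targets NRARP and HES1 by 1.60 and 0.51. In the WNT list 7 of 18 rose (background 25.8%) and 2 fell (26.4%). The ligand genes WNT7A and WNT9A rose by 1.92 and 2.08, and WNT10A, with 43 and 4 counts over the groups, was called lower. The secreted inhibitors DKK1 (67.6 ± 5.36 and 61.2 ± 7.09 CPM) and SFRP1 (339 ± 28.1 and 324 ± 16.7 CPM, SD, n = 3) were not called. Without the third EGF+TGFB library both were called lower, at -0.29 and -0.16 (edgeR adjusted p = 0.030 and 0.032).

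To ask how far the response depended on EGF, the effect of TGFB with EGF was set beside its effect without EGF (TGFB against PBS), which uses none of the same libraries. TGFB alone changed 5569 rows (33.5%), 3135 up (18.9%) and 2434 down (14.7%). Rows called in both numbered 4116, which is 47.5% of those called with EGF and 73.9% of those called without. Over all rows, 52.2% were called with EGF and 33.5% without. The same direction held in 91.5% of the 4116, and the same sign in 69.2% of all rows tested. The difference between the effects, tested as an interaction, was called in 4597 rows (27.7%), 2046 in which the effect was more positive with EGF (12.3%) and 2551 in which it was more negative (15.4%). Among the rows with a called difference, 532 rose in both and more with EGF, 267 rose in both and less with EGF, 312 fell in both and more with EGF, and 38 fell in both and less with EGF. A further 2365 were called only with EGF, 633 only without it, and 350 in opposite directions. The split of the differences by direction depends on the libraries fitted and on the filter. In the fit of all groups 44.5% were more positive with EGF, and 34.0% in a fit of these 4 groups alone. With no filter on low counts the share was 53.5%.

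**Figure D5:**
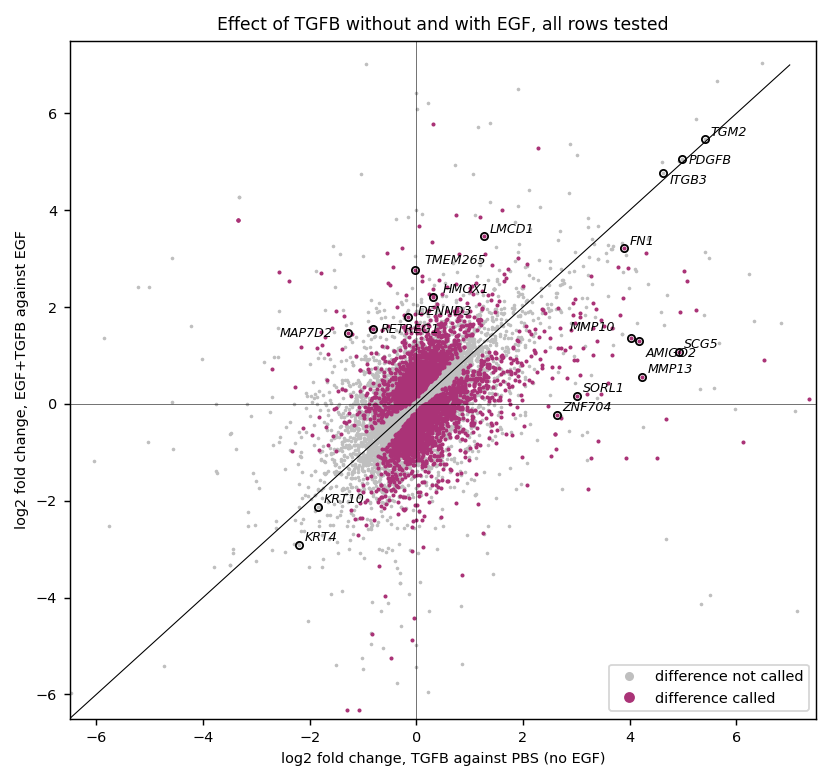
Log2 fold change with TGFB in cells given EGF (vertical) against that in cells without EGF (horizontal), one point per row tested, red-purple where the difference between the effects was called; the line marks equal effects. TGM2, PDGFB and ITGB3 lie within 0.14 of the line, LMCD1 and TMEM265 above it, and SORL1 and ZNF704 near 0 with EGF but at 3.02 and 2.63 without; 19 of 16611 rows lie outside the plotted range.

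For several of the strongest rises no difference between the settings was called. TGM2 rose by 5.41 without EGF, from 4.25 ± 0.415 to 182 ± 28.8 CPM (SD, n = 3), and the difference from its rise with EGF was 0.05 ± 0.29 (SE). For PDGFB, ITGB3 and NEDD9 the differences were 0.10 ± 0.63, 0.14 ± 0.69 and 0.16 ± 0.20, and none was called, which does not show that the rises were equal. CDH2 rose by 2.86 without EGF (difference -0.13 ± 0.13), though its level stayed lower there, at 21.9 ± 1.32 CPM with TGFB against 98.6 ± 8.81 CPM with EGF+TGFB. For other genes of the pathway the rise was smaller with EGF. CCN2 rose by 3.87 without EGF (difference -1.68 ± 0.18), PMEPA1 by 3.36 (-1.41 ± 0.14), THBS1 by 2.88 (-1.69 ± 0.32) and LTBP2 by 2.51 (-1.15 ± 0.11). SMAD7 and TGFBR1 rose more with EGF, by differences of 0.41 ± 0.11 and 0.38 ± 0.09, and TPM1 by 1.37 ± 0.13.

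The fall of replication genes was larger with EGF. Without EGF, 2 of the 29 replication genes were called lower with TGFB (background 14.7%) and 1 higher (18.9%). The difference was called in 23, all in the direction of a larger fall with EGF (background 15.4%). MCM2 had 17.5 ± 0.944 CPM with PBS and 16.3 ± 1.39 CPM with TGFB (SD, n = 3), and its difference was -1.04 ± 0.20 (SE). Of 29 mitosis genes 7 were called lower without EGF (background 14.7%), and the median there was -0.41. For 8 of the 29 the difference was called, always more negative with EGF (background 15.4%). Of 18 ribosome genes 10 were called lower without EGF (background 14.7%), with a median of -0.20. For 16 of the 18 the difference was called, always more negative with EGF (background 15.4%). CDKN1A had 477 ± 35.0 CPM with PBS and 522 ± 37.2 CPM with TGFB, and the difference of its effects was 0.86 ± 0.17.

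Without EGF, 11 of the 20 genes of the ERK list rose with TGFB (background 18.9%) and 1 fell (14.7%), with a median of 0.57. Of the differences, 8 were called as more negative with EGF (background 15.4%) and 2 as more positive (12.3%). DUSP6 rose from 5.39 ± 0.377 to 10.4 ± 0.210 CPM with TGFB alone (SD, n = 3), while it fell when TGFB was added to EGF, a difference of -1.60 ± 0.27 (SE). AREG had 10.8 ± 1.33 and 14.8 ± 1.02 CPM without EGF (difference -1.48 ± 0.33). HBEGF had 19.6 ± 1.02 and 21.0 ± 2.35 CPM (1.13 ± 0.15). Differences were also called in 8 of 21 sterol genes and 7 of 22 interferon genes, all more positive with EGF (background 12.3%). VEGFA differed by 1.42 ± 0.18, IRF9 by 1.15 ± 0.20 and LAMB2 by 1.05 ± 0.12, LAMB2 being called lower without EGF (-0.36).

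The widest differences are described next; the genes were picked by that difference. SORL1, a sorting receptor, had 17.8 ± 2.91 CPM with PBS and 144 ± 5.95 CPM with TGFB, but 20.4 ± 1.19 CPM with EGF and 22.8 ± 0.977 CPM with EGF+TGFB (SD, n = 3; difference -2.85 ± 0.15 SE). ZNF704, a zinc finger gene, had 2.56 ± 0.456 and 15.8 ± 1.58 CPM without EGF, and 8.47 ± 0.380 and 7.28 ± 0.288 CPM with it (-2.85 ± 0.19). The collagenase MMP13 had 0.769 ± 0.169 and 14.6 ± 1.27 CPM without EGF, and stayed under 1 CPM in all 6 libraries with it. In the other direction, DENND3 had 20.6 ± 0.903 and 18.5 ± 1.56 CPM without EGF, and 10.4, 10.2 and 7.67 CPM with EGF against 36.2, 33.8 and 28.2 CPM with EGF+TGFB (1.95 ± 0.17). RETREG1, a receptor for autophagy of the endoplasmic reticulum, was called lower without EGF (-0.81) and higher with it (1.54 ± 0.14). HMOX1, heme oxygenase, had 19.6 ± 2.82 and 24.5 ± 3.98 CPM without EGF, and 3.41 ± 0.461 and 15.8 ± 1.73 CPM with it (1.89 ± 0.22).

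The effect of TGFB with EGF was also set beside its effect with OSM, which again uses none of the same libraries. OSM+TGFB against OSM changed 8101 rows (48.8%, against 52.2% with EGF). Rows called in both numbered 6540, 75.5% of those with EGF and 80.7% of those with OSM. The same direction held in 98.5% of the 6540, and the same sign in 79.9% of all rows tested. The difference of effects was called in 1071 rows (6.45%), 554 more positive with EGF (3.34%) and 517 more negative (3.11%); with the replicate block 1809 were called. The split by direction was not stable: 51.7% of the calls were more positive with EGF, against 70.8% in a fit of these 4 groups alone, 47.6% with RLE scaling, 47.8% with DESeq2 and 40.0% to 54.6% with a library left out. No replication gene and no ribosome gene differed, and 2 of 29 mitosis genes did (background 3.34%), with a smaller fall with EGF. SNAI1 rose more with EGF (difference 2.17 ± 0.23), from 0.359 to 5.79 CPM, against 14.9 ± 1.26 to 53.1 ± 1.51 CPM with OSM (SD, n = 3). SOCS3, the feedback inhibitor of cytokine receptors, had 165 ± 19.7 and 154 ± 12.2 CPM with OSM and OSM+TGFB, but rose from 1.28 ± 0.250 to 6.35 ± 0.984 CPM with EGF (difference 2.43 ± 0.21). TGM2 rose more with EGF by 1.34 ± 0.25, and TGFB2 by 1.82 ± 0.37. FN1 rose less with EGF by 1.41 ± 0.25. Among 26 chemokine, cytokine and interleukin-1 genes 8 differences were more positive with EGF (background 3.34%) and 1 more negative (3.11%). The 8 included CXCL8 (1.53 ± 0.30) and CXCL1 (1.55 ± 0.30). With OSM, CXCL8 and CXCL1 were at 4.67 ± 1.12 and 20.7 ± 5.31 CPM before TGFB and 4.94 ± 0.634 and 17.0 ± 2.42 CPM after.

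When OSM was present beside EGF, TGFB changed 9766 rows (58.8%, against 52.2% with EGF alone). Rows called in both numbered 7397, 85.4% of the calls with EGF alone and 75.7% of the others. The same direction held in 98.8% of the 7397, and the same sign in 81.7% of all rows tested. The difference of effects was called in 1452 rows (8.74%), 562 more positive with EGF alone (3.38%) and 890 more negative (5.36%), and in 2411 with the replicate block. The median log2 fold change with EGF+OSM was -1.30 for replication genes, -1.21 for mitosis genes and 2.72 for SMAD targets, against -0.94, -0.95 and 1.88 with EGF alone. No replication or mitosis gene had a called difference. Of 21 SMAD targets 6 did (background 5.36%), all with a smaller rise with EGF alone. Of 18 ribosome biogenesis genes 4 had a called difference (background 3.38%), all with a smaller fall with EGF alone. Their list's median was -0.96 with EGF+OSM and -0.69 with EGF alone. Among 20 collagen chains 9 differences were more negative with EGF alone (background 5.36%) and 1 more positive (3.38%). Among 20 glycolysis and hypoxia genes the counts were 9 and 0.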

How the data were processed

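RNA was measured in 27 libraries of MCF10A cells (9 groups of 3, by their labels), made with a stranded kit for polyadenylated RNA. The authors deposited estimated counts per gene, which were already whole numbers; per the submitters' processing notes the tools were Trim Galore 0.4.3, cutadapt 1.10, FastQC 0.11.5, kallisto 0.46.2 and R 3.5.0, with the builds GRCh38.p5 and hg38. The roles of these tools and any rounding are not given in the sources used here. Of 40487 rows, 7165 had no symbol, 652 of them among those tested; they stayed in the tests.

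Rows with low counts were removed with filterByExpr, which left 16611. A quasi-likelihood model with a mean per group was fitted over all 27 libraries with edgeR 4.0.16 in R 4.3.3 (glmQLFit with robust fitting, glmQLFTest; 18 residual degrees of freedom; prior count 0.125), after scaling by the trimmed mean of M-values (factors 0.867 to 1.12). Adjustment was by Benjamini-Hochberg across the rows tested, with calls at under 0.05. The biological coefficient of variation was 10.1%, and libraries held 30143162 to 52947078 counts; limits from a count of 0 cover counting error only. A run on simulated data, in which few rows changed, cannot show that the scaling holds where 52.2% of rows were called. A symbol with several rows entered by its most abundant row; IER3, SCG5 and SMURF1 then had no coordinates. Gene positions came from GENCODE v44 (GRCh38) through the identifier, found for 35548 rows, and cover the gene's whole span, which may differ from the authors' build.

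The comparisons were EGF+TGFB against EGF, TGFB against PBS, and the differences between the effect of TGFB with EGF and its effect without EGF, with OSM and with EGF+OSM. Named were the 12 strongest rises and falls among called genes with groups that do not overlap and at least 10 CPM in the higher group, fixed leading genes and up to 3 further called members with the largest change in each list, and 6 differences in each direction; a few items are not reported here. The 39 lists (658 genes, cell markers included) came from general knowledge; members and lists were chosen with earlier results of these data known. Alternatives were other scalings, no filter, a replicate block, DESeq2 1.42.0, identical rows once, only the groups compared, a 2-fold minimum, and leaving out each library. Replicate numbers are shared between groups in the labels. Deviations from the group means correlated at 0.171, 0.218 and 0.231 for the same-numbered EGF and EGF+TGFB libraries, so these numbers were taken to pair the libraries, from the data and not from the labels, in the alternative with the block; the main model has no pairing. For PBS and TGFB the values were 0.106, 0.0893 and 0.115.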

Additional observations from a re-analysis of the deposited data

Results flagged for a closer look

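The effect of TGFB with EGF differed from its effect without EGF in 4597 rows, from its effect with OSM in 1071 rows and from its effect with EGF+OSM in 1452 rows, each by a test of the difference itself. The genes with the widest differences among those with at least 10 CPM in a group are given here as log2 differences, effect with EGF minus the other effect.

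Against the effect without EGF, the genes with the most negative differences were SCG5 (-3.84), MMP13 (-3.67), AMIGO2 (-2.87), ZNF704 (-2.85), SORL1 (-2.85) and MMP10 (-2.66). SCG5, a secretory chaperone, had 0.0330 ± 0.0285 CPM with PBS and 1.04 ± 0.159 CPM with TGFB, and MMP10 had 0.0651 ± 0.0535 and 1.08 ± 0.0963 CPM (SD, n = 3), so both rest on few counts with PBS; the call of MMP10 was lost without PBS replicate 2 (adjusted p = 0.093) or 3 (0.069) and with no filter (0.058). AMIGO2, an adhesion protein, rose in both settings, from 1.54 ± 0.178 to 27.7 ± 1.55 CPM without EGF and from 58.5 ± 2.38 to 144 ± 6.59 CPM with it. The most positive were TMEM265 (2.79), MAP7D2 (2.73), RETREG1 (2.34), LMCD1 (2.20), DENND3 (1.95) and HMOX1 (1.89). MAP7D2, a microtubule-associated gene, had 12.4 ± 1.99 and 5.12 ± 0.197 CPM without EGF, and 12 and 28 counts in all with EGF and EGF+TGFB.

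Against the effect with OSM, the most negative were MMP13 (-2.82), BMF (-2.28), MMP10 (-2.25), IVL (-2.18), SORL1 (-1.93) and ATP1B1 (-1.88). BMF, a death gene of the BCL2 family, had 14.3 ± 3.90 CPM with OSM and 57.3 ± 10.8 CPM with OSM+TGFB, and 3.93 ± 1.36 and 3.22 ± 0.909 CPM with EGF and EGF+TGFB. ATP1B1, a subunit of the sodium pump, had 15.7 ± 1.21 and 111 ± 21.6 CPM with OSM and 33.3 ± 1.18 and 63.9 ± 5.64 CPM with EGF. MMP13 lost this call in the fit of only the groups compared (adjusted p = 0.13), without EGF replicate 2 (0.076) or 3 (0.066) and with no filter (0.053). The most positive were CXCR1 (3.43), SOCS3 (2.43), DYSF (2.25), SNAI1 (2.17), TGFB2 (1.82) and TP73 (1.73). CXCR1, a receptor of CXCL8, fell from 20.1 ± 5.46 to 7.52 ± 1.20 CPM with OSM and rose from 0.561 ± 0.0492 to 2.25 ± 0.302 CPM with EGF. DYSF, a membrane repair gene, had 12.9 ± 1.75 and 8.47 ± 1.90 CPM with OSM and 3.13 ± 0.642 and 9.79 ± 0.665 CPM with EGF.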

How the results depend on the processing

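No called fold change or difference of a named gene changed sign under any alternative run. Medians near 0 did in several lists. Without EGF+TGFB replicate 2 that of the ID and BMP list went from -0.05 to 0.03 and that of the keratins from 0.02 to -0.12. The median of the epithelial lineage factors went from 0.13 to -0.01 in the same fit. The desmosome median went from 0.06 to -0.10 without EGF+TGFB replicate 1. That of the EGF family went from 0.01 to -0.07 and -0.08 without EGF+TGFB replicate 1 and 2. The share of calls higher for EGF+TGFB against EGF went from 49.5% to 53.1% with no filter. The count of rows called for EGF+TGFB against EGF was 8659 with RLE scaling, 8697 with upper-quartile scaling, 8072 with no filter, 9080 with the replicate block, 8641 with DESeq2, 8505 with identical rows entered once, 8242 with only the 6 libraries fitted, and 7758 to 8519 with a library left out. A 2-fold minimum left 1521 rows there, 919 for TGFB against PBS, and 665, 221 and 333 for the differences without EGF, with OSM and with EGF+OSM. With the replicate block the differences with OSM numbered 1809 and those with EGF+OSM 2411; leaving out libraries gave 914 to 1584 for the latter. The block made ACTA2, C3, LCN2 and TGFBR2 called and changed no other call of a named gene. Of 192 named genes called, 180 kept the call in every alternative fit; those that lost it were BCL2A1, CDKN1C, ENO2, ESR1, HRK, IFIT1, IVL, SERPINA3, SMAD2, TGFB1, TGFB3 and XAF1. Of 25 not called, 11 were called under at least 1 alternative. They were ACTA2, C3, DKK1, EGFR, ESRP1, ID1, LCN2, MAP7D2, SFRP1, SPRY4 and TGFBR2. The cause was not tested. Genes with few counts, such as IL6, CDH11, COL1A2 and WNT10A, have fold changes that depend on the prior count, and depth limits them. Leaving out the second EGF+TGFB library lowered the share of differences without EGF that were more positive from 44.5% to 31.9%. With no filter that share was 53.5%.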
